A study of Mus musculus with 2 samples.

Results

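The genes described here are those with symbols from Mir6896 to Mir7094, a run of late-numbered mouse microRNA (miRNA) genes proposed as mirtrons. They were chosen by symbol alone, whatever their counts: 178 of the 1973 miRNA genes counted carry such a symbol, and all 178 gene identifiers matched the annotation in their full version. The annotation used holds 201 genes with these symbols, and the other 23 have no row in the count tables and were not analysed here. Mirtrons are miRNA precursors that lie in introns and are cut out by the splicing machinery. In the usual pathway the nuclear enzyme Drosha, with its partner DGCR8, cuts the hairpin from a longer transcript. In a mirtron the spliced intron lariat is opened by the debranching enzyme and folds into a hairpin that Dicer can use, so splicing takes the place of Drosha. A conventional mirtron reaches from one splice site of a short intron to the other, while a tailed mirtron meets only 1 splice site and carries an extra stretch of intron that has to be trimmed away.

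MicroRNA sequencing measured RNA of sizes under 30 nt from hearts of B6NCrl mouse embryos at day 11.5, with male and female embryos pooled and labelled healthy. The only group has 2 libraries, labelled as separate biological replicates, so the design holds no contrast between conditions. Replicate 1 came from 109 embryos. How many replicate 2 came from was not found in its labels. No genotype, treatment or transgene is named.

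The values are read counts on each gene's own strand, and CPM are those counts per 1000000 own-strand counts on miRNA genes in the same library. Since each read stands for a whole small RNA, counts were not divided by length. Replicate 1 held 18467499 own-strand counts and replicate 2 held 2017294, so 1 read was worth 0.0541 CPM in the first and 0.496 CPM in the second. At these depths a gene with 0 counts may still stand at 0.162 CPM in replicate 1 or 1.49 CPM in replicate 2 (3 counts of each total; floors and intervals cover counting error only). The libraries held high levels of the cardiac miRNAs Mir208b, in Myh7, at 48339 ± 2647 CPM and Mir208a, in Myh6, at 10631 ± 523 CPM (SD, n = 2). The tissue was measured in bulk, so fewer cells of a type and less RNA per cell cannot be told apart. Coordinates are on GRCm38 (mm10), from GENCODE M21, and sequences are RefSeq's for GRCm38.p6.

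By annotated position most of the genes fitted the form of a mirtron, and the common form was the tailed one. Each of the 178 hairpins overlapped an annotated intron on its own strand, in 174 host genes on 19 chromosomes. In 165 of them (92.7%) the hairpin's 3′ end lay within 5 nt of the intron's 3′ splice site, and in 164 it lay exactly at it. Among the other 702 intronic miRNA genes of the tables, 38 (5.41%) ended within 5 nt of a 3′ splice site. The hairpin also started within 5 nt of the 5′ splice site in 15 of the 165, the conventional form. The remaining 150 had a tail upstream of the hairpin, and so were 5′-tailed. By the 5 nt limit 4 genes met the 5′ splice site but not the 3′ one. Mir6927, Mir6936 and Mir6977 had intron left downstream of the hairpin and so were 3′-tailed, while Mir6973b in Gfra4 covered its whole 73 nt intron and ran 7 nt into the next exon. Neither site was met within 5 nt by 9 genes. Of those 9, 6 ended 6 or 7 nt into the downstream exon. These hairpin ends are part of the annotation, so the counts had no part in them. The genes were already proposed as mirtrons, so their positions are no independent check of that label. Whether splicing releases the hairpins was not tested. An exon of some annotated transcript also overlapped 39 of the 178 hairpins.

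**Figure D1:**
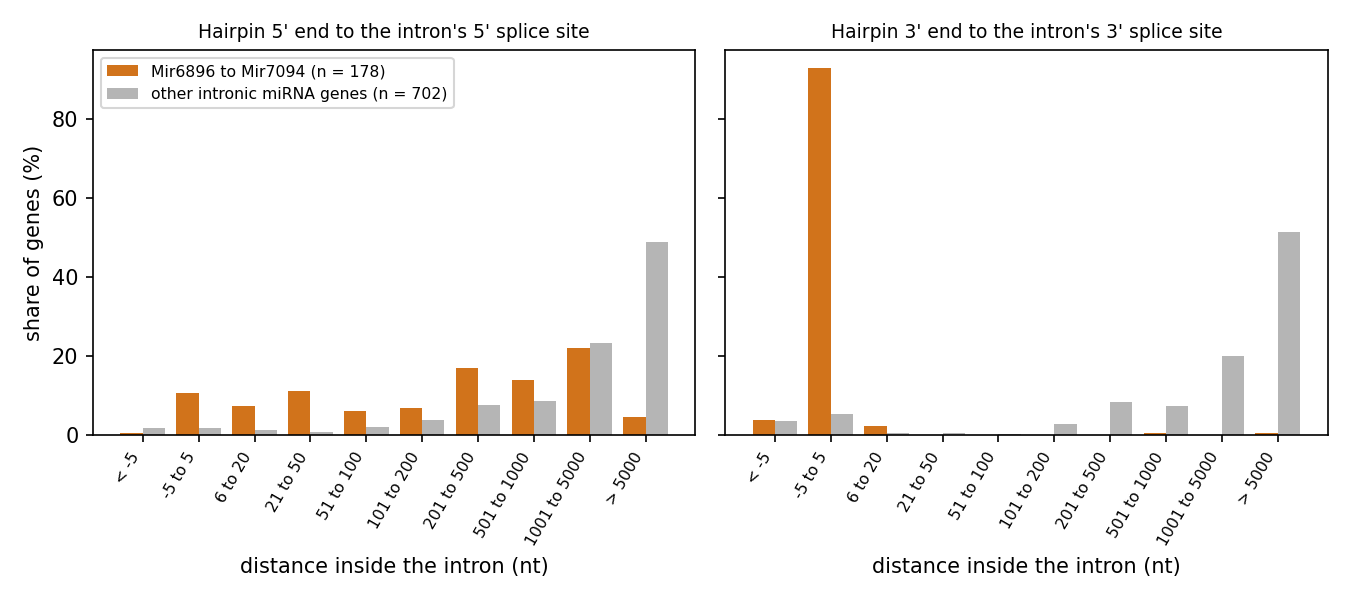
Distance of each hairpin's 5′ end (left) and 3′ end (right) from the matching end of its host intron, in nt and grouped in bins, as a share of the 178 Mir6896 to Mir7094 genes (orange) and of the 702 other intronic miRNA genes (grey). Negative values reach into an exon. The 3′ end of 92.7% of the orange genes falls within 5 nt of the splice site, while their 5′ ends are spread over all distances.

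Host introns of the 15 conventional genes were short, from 67 to 137 nt with a median of 83 nt. Those of the 150 5′-tailed genes ran from 77 to 36269 nt with a median of 484.5 nt. The sequences show how the splice sites frame the hairpin. Shown first are 5 of the 6 conventional genes detected, by the limit given further on (the sixth, Mir7070, is named only), with the intron's first 2 and last 2 bases in capitals.
Mir6944: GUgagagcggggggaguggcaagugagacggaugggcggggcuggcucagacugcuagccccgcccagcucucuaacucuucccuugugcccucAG
Mir7018: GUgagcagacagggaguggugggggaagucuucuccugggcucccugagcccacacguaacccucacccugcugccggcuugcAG
Mir7068: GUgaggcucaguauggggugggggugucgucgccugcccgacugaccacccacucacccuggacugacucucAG
Mir6958: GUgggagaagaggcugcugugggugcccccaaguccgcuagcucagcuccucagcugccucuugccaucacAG
Mir7082: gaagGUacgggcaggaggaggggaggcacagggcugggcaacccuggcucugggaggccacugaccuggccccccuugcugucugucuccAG
In Mir7082 the annotated hairpin starts 4 nt before the intron, in the upstream exon. All 148 hairpin sequences at hand that end at the 3′ splice site close with AG, the invariant end of most introns. Of the 15 that start at the 5′ splice site, 14 open with GU. The exception, Mir7088 in Mst1, opens with GC, the rarer donor pair, and had a count of 0 in both libraries.

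The next pair, also with the intron's last 2 bases in capitals, are the 5′-tailed genes with the highest mean CPM. Their hairpins begin deep in the intron, 1773 nt after the 5′ splice site of a Dock6 intron for Mir7083 and 171 nt after that of a Pdlim7 intron for Mir6945, so the printed hairpin does not reach the donor.
Mir7083: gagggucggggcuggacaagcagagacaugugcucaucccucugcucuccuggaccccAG
Mir6945: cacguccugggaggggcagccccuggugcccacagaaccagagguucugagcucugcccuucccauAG

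Mature miRNAs of the series carried the marks of the intron ends. Of 145 mature 3′ arms in hairpins that end at the 3′ splice site, 115 ended on the last base of the intron, 10 ended 1 nt before it and 13 ended 2 nt before it. Of the 115, 103 closed with CAG, 10 with UAG and 2 with AAG. In the 3′ arms, C and U together made up a median of 71.4% of bases over 155 mature sequences, against 54.5% over 467 mature 3′ arms of other miRNAs. The pyrimidine-rich tract before a 3′ splice site is where the splicing factor U2AF binds. In the 5′ arms, G made up a median of 45.5% over 157 sequences, against 27.3% over 461 of other miRNAs. The lower quartiles of the series, 39.1% for G and 65.2% for C and U, lay above the upper quartiles of the other miRNAs, 36.4% and 61.9%. These shares describe the sequences and were not tested.

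Hairpins of the series were short. Their median length was 66 nt over 161 sequences, against 84 nt over 705 other miRNA hairpins, and their median G and C content was 57.7% against 50.6%. The folding energy computed with RNAfold had a median of -26.9 kcal/mol against -35.5 kcal/mol, and per nt it was -0.40 against -0.42 kcal/mol. Hairpins of detected genes had a median G and C content of 63.0% and those of undetected genes 57.4%, which was not tested.

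**Figure D2:**
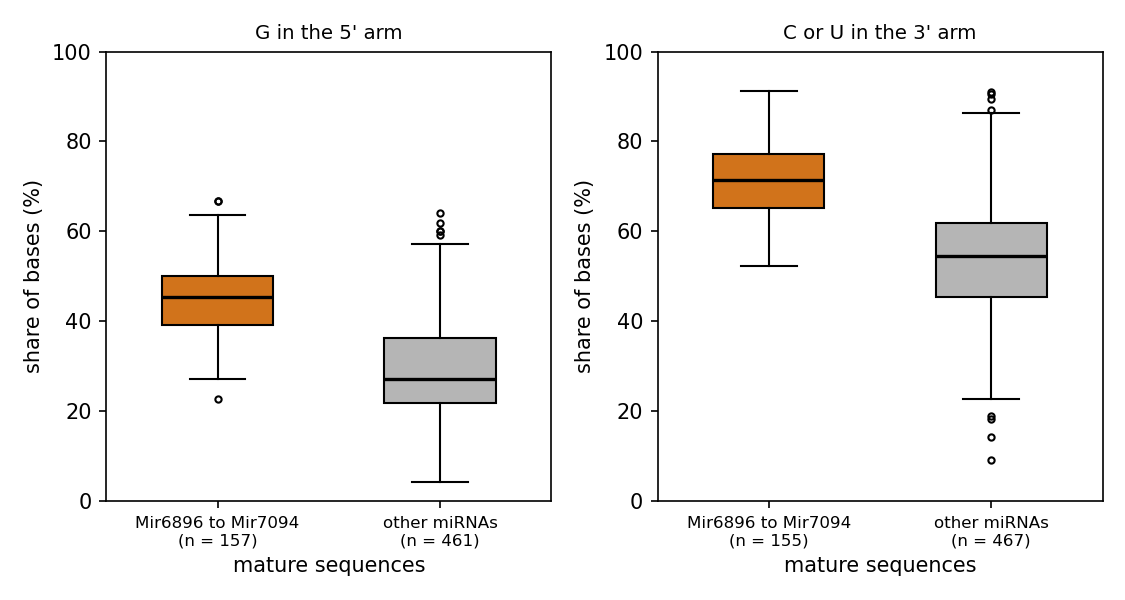
Share of G in mature 5′ arms (left) and of C or U in mature 3′ arms (right), in percent, for the Mir6896 to Mir7094 genes (orange) and other miRNAs (grey). Lines mark the medians, boxes the middle 50 percent of sequences, whiskers reach up to 1.5 box lengths and circles are sequences beyond them. Both orange medians (45.5% and 71.4%) lie above the grey ones (27.3% and 54.5%).

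The donor sequence also ran into the seed, the bases 2 to 8 of a miRNA that pair with its targets. In 15 of the 157 mature 5′ arms the first base was the first base of the intron. Of these, 10 had a seed that starts with UGAG, 3 one that starts with UA, and 1 one that starts with UGGG; the remaining sequence is that of Mir7088. Among the 142 other 5′ arms of the series 1 seed started with UGAG, and among 461 mature 5′ arms of other miRNAs 4 did (0.868%). The 5 from detected genes are given here, seed in capitals, to show the shared start.
miR-6944-5p: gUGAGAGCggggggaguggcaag
miR-7018-5p: gUGAGCAGacagggaguggugggg
miR-7068-5p: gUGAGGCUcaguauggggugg
miR-7070-5p: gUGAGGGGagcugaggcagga
miR-6958-5p: gUGGGAGAagaggcugcugugg
After the opening bases these seeds part, so they are 5 different seeds. The seed of miR-7070-5p is shared with miR-6927-5p, and that of miR-6958-5p with 3′ arms of Mir30c-1 and Mir30c-2. Over the series, 240 of 312 mature names had a seed found in no other mature miRNA of the counted genes.

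On the 3′ side 1 seed joined 3 genes. The mature 3′ arms of Mir7018 in Hspg2, Mir7068 in Cherp and Mir7023 in Pik3cd share CACCCUG, shown in capitals.
miR-7018-3p: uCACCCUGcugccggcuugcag
miR-7068-3p: uCACCCUGgacugacucucag
miR-7023-3p: uCACCCUGucugcgccccucag
Mir7018 and Mir7068 each had over 90 counts in replicate 1 (91 and 96), whereas Mir7023 had 0 in replicate 1 and 1 in replicate 2. The seed CUGCCCU of miR-7069-3p, cCUGCCCUgccaaccccuaca, was shared with miR-18a-3p from Mir18, a gene at 4840 CPM with both its arms counted together. A shared seed describes the letters only.

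In the heart libraries the series was widely present and everywhere low. At least 1 count was found for 140 of the 178 genes (78.7%) in replicate 1, where 39.2% of all 1973 miRNA genes had one. Those 1973 include 931 genes with other names or no name, of which 8.06% had a count in replicate 1. In replicate 2, the shallower library, 93 had a count (30.2% of all genes did). If the counts of replicate 1 were spread over a library of the depth of replicate 2, 81.3 of the genes would be expected to keep a count. Counts were found in both libraries for 91 of the 178 genes, where 587 of all 1973 had them in both. Of the series 49 had counts in replicate 1 only and 2 in replicate 2 only, while 36 stood at 0 in both. The median count of the series was 6 in replicate 1 and 1 in replicate 2.

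Together the 178 genes took 2534 counts in replicate 1 and 283 in replicate 2. That was 137 CPM and 140 CPM, a mean of 139 ± 2 CPM (SD, n = 2), and replicate 2 over replicate 1 was 1.02 (exact interval 0.901 to 1.16). As a share of all own-strand counts it came to 0.0137% (exact 95% Clopper-Pearson interval 0.0132 to 0.0143%) and 0.0140% (0.0124 to 0.0158%). A level of 1 CPM or more in both libraries, the limit used for detection, was reached by 21 of the 178 genes (11.8%), where it was reached by 21.2% of all genes. The share with a count in replicate 1 was above that of all genes and the share detected was below it; neither difference was tested. The limit stands for 19 counts in replicate 1 but only 3 in replicate 2. Replicate 1 alone put 34 of the 178 genes at 1 CPM or more and replicate 2 alone put 26 there. For the other miRNA genes the shares were 23.3% and 22.9%. Of 18 genes at 1 CPM in a single library, 13 passed in replicate 1 only and 5 in replicate 2 only. The detected number of the series was 34 at a limit of 0.5 CPM and 3 at 5 CPM, and it was 13 when counts were scaled to all mapped reads. For the other miRNA genes the detected shares were then 23.5%, 17.9% and 20.7%.

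Symbol numbers follow the order in which miRNAs were registered. For the 465 genes numbered under 1000, 75.3% had a count in replicate 1 and 62.8% were detected. For the 204 numbered from there to under 6000 the shares were 66.7% and 31.4%. The 100 genes numbered from 6000 up to the series had a count in replicate 1 in 12% of cases and were detected in 7.00%. For the 95 numbered above the series, 64.2% had a count in replicate 1 and 11.6% were detected. The 931 genes with other names or no name, at 8.06% and 2.58%, lower both shares over all genes. The 38 other genes that end within 5 nt of a 3′ splice site stood at 76.3% and 31.6%. The series itself, at 78.7% and 11.8%, was near the earliest group in the first share and near the latest in the second.

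**Figure D3:**
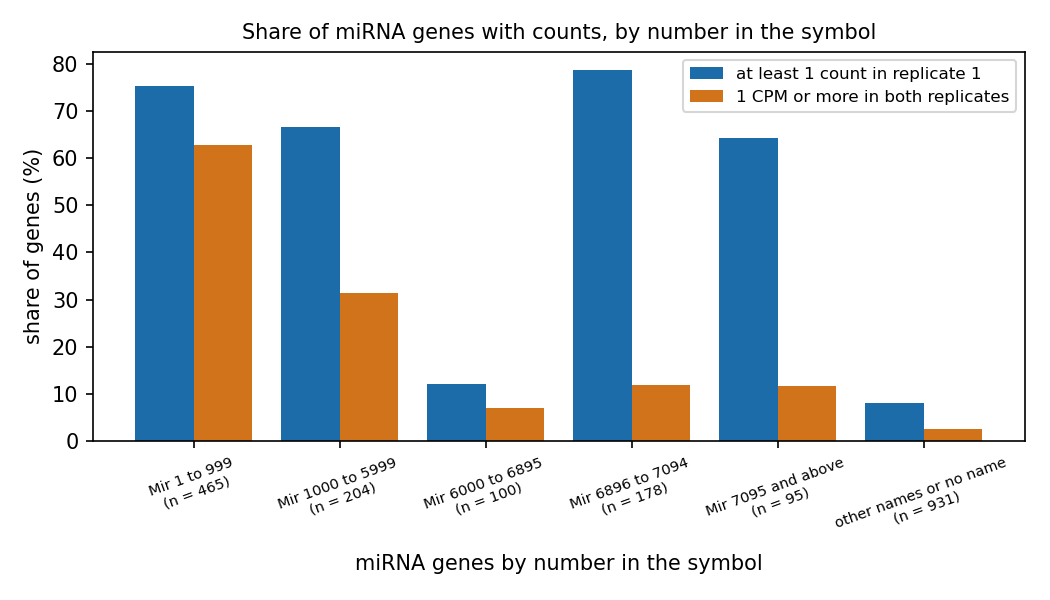
Share of miRNA genes, in percent, with at least 1 own-strand count in replicate 1 (blue) and with 1 CPM or more in both replicates (orange), grouped by the number in the symbol. The series Mir6896 to Mir7094 pairs a blue bar of 78.7% with an orange bar of 11.8%.

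Nearly every read lay on the strand of the host gene. Opposite-strand counts over the 178 genes were 6 in replicate 1, against 2534 on the own strand, which is 0.236% (exact 95% interval 0.0867 to 0.513%). In replicate 2 they were 0 against 283, which allows up to 1.30%. Over the other genes the opposite strand held 4.59% and 4.48%, most of it at genes with no host (94431 of 94565 opposite-strand counts in replicate 2). The other intronic genes that meet neither splice site stood at 0.0118% in replicate 1.

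Counts were spread over many genes with a few leaders. In replicate 1 the first 3 genes by mean CPM held 25.6% of the counts of the series and the first 10 held 43.8%; in replicate 2 these shares were 26.1% and 47.0%. The 21 detected genes held 58.8% and 64.0%. The other 157 genes together still gave 1044 counts in replicate 1 and 102 in replicate 2, or 56.5 and 50.6 CPM. Only 2 genes reached a mean of 10 CPM.

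The highest was Mir6944 (ENSMUSG00000098341.1), which fills a 96 nt intron of Dbn1, the gene of the actin-binding protein drebrin, on the minus strand of chromosome 13 from 55477681 to 55477776. It had 331 counts in replicate 1 and 27 in replicate 2, or 17.9 and 13.4 CPM (mean 15.7 ± 3.2, SD, n = 2). That placed it 281st of the 1973 genes. Next came Mir7083 (ENSMUSG00000098473.1), at the end of an intron of Dock6, an activator of Rac and Cdc42, on the minus strand of chromosome 9 from 21809941 to 21810000. Its counts were 210 and 24, or 11.4 and 11.9 CPM (11.6 ± 0.4). Mir6944 was above Mir7083 in both libraries. In replicate 1 their exact intervals lay apart, at 16.04 to 19.96 CPM and 9.89 to 13.02 CPM, and in replicate 2 they overlapped.

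The third, Mir6945 (ENSMUSG00000099096.1), lies on the minus strand of chromosome 13 from 55507625 to 55507692, in an intron of Pdlim7, a PDZ and LIM domain protein of actin filaments. With 108 counts in replicate 1 and 23 in replicate 2, it stood at 5.85 and 11.4 CPM. In replicate 2 it was level with Mir7083, and in replicate 1 it was near Mir7018 and Mir7068. Mir7018 (ENSMUSG00000099134.1) fills an 85 nt intron of Hspg2, the gene of the basement membrane proteoglycan perlecan, on the plus strand of chromosome 4 from 137538286 to 137538370. It had 91 and 11 counts, or 4.93 and 5.45 CPM. Mir7068 (ENSMUSG00000099079.1) fills a 74 nt intron of Cherp, on the minus strand of chromosome 8 from 72470016 to 72470089, with 96 and 8 counts, or 5.20 and 3.97 CPM. Mir6900, which ends at the 3′ splice site of a 2898 nt intron of Ndufa10, a subunit of respiratory complex I, stood at 4.33 and 4.46 CPM. These last 3 changed places between the libraries and their exact intervals overlapped in each, so no order among them was resolved.

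**Figure D4:**
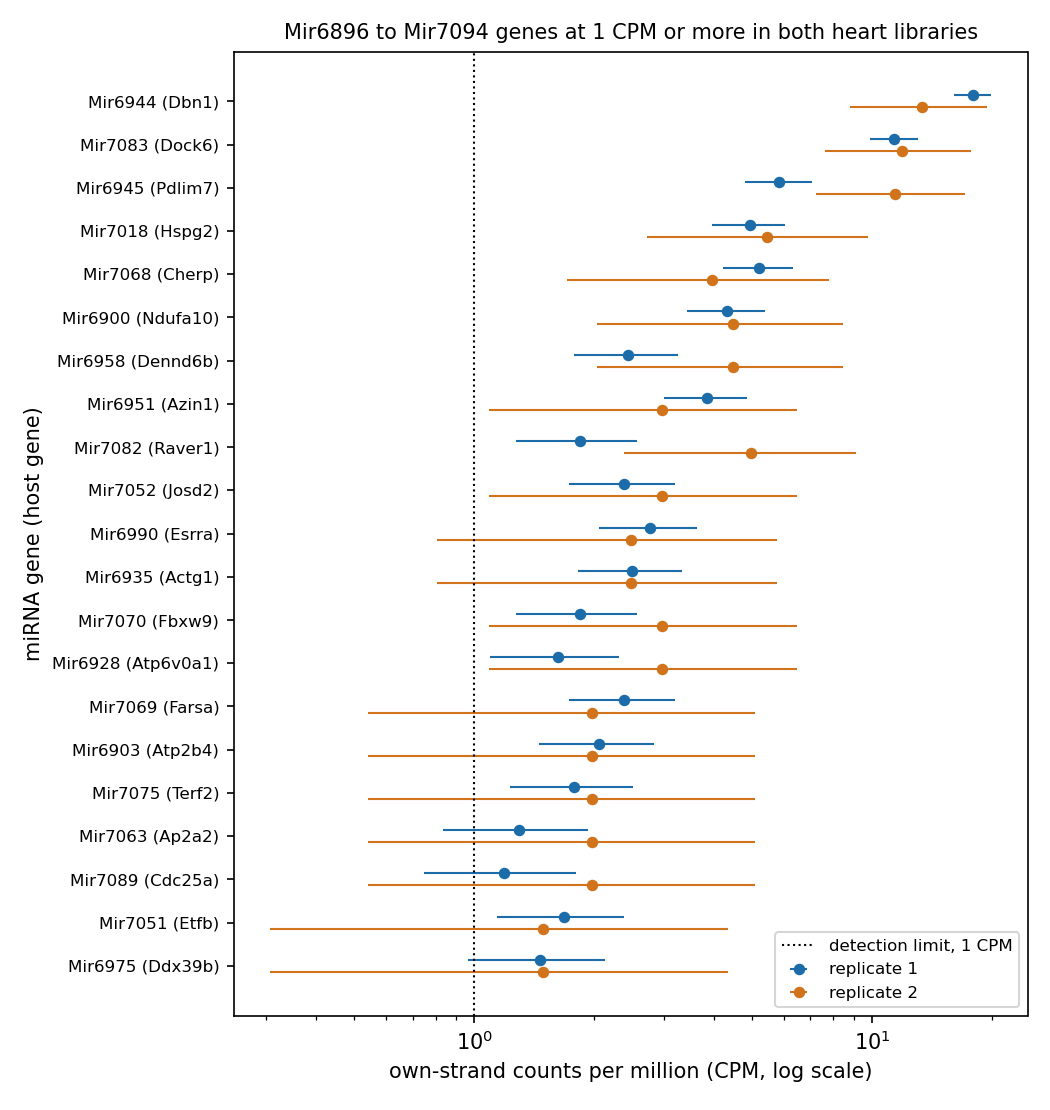
Own-strand CPM (log axis) of the 21 detected genes of the series, with the host gene in brackets, for replicate 1 (blue) and replicate 2 (orange). Bars are exact 95% Poisson intervals and cover counting error only. Below the first 3 genes most intervals overlap, and in replicate 2 the lowest genes rest on 3 or 4 counts.

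The other 15 detected genes lay between 1.47 and 3.45 CPM on average. Mir6958 in Dennd6b had 45 and 9 counts, Mir6951 in Azin1 had 71 and 6, and Mir7082 in Raver1 had 34 and 10. Mir6951 ends at the 3′ splice site, while Mir6958 and Mir7082 meet both sites. Mir6990 lies in Esrra, a nuclear receptor that drives genes of mitochondrial metabolism, and had 51 and 5 counts. Mir6935 lies in Actg1, the gene of cytoplasmic gamma-actin, and had 46 and 5. Its levels of 2.49 and 2.48 CPM were the closest pair by SD among the detected genes. Mir7052 in Josd2 had 44 and 6 counts, Mir7069 in Farsa, a subunit of phenylalanyl-tRNA synthetase, had 44 and 4, and Mir7070 in Fbxw9 had 34 and 6. Mir6928 in Atp6v0a1, a subunit of the proton-pumping V-ATPase, had 30 and 6. Mir6903, 1 of the 2 detected genes that meet neither splice site within 5 nt, lies in the calcium pump gene Atp2b4 and had 38 and 4 counts. The second was Mir7051 in Etfb, an electron transfer protein of mitochondria, with 31 and 3. Mir7075 in the telomere protein gene Terf2 had 33 and 4 counts.

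Near the limit the calls rest on a few reads of either library. Mir6975 in Ddx39b, an RNA helicase, had 27 and 3 counts. Just inside the limit by the lower library were Mir7089 in the cell cycle phosphatase gene Cdc25a with 22 and 4, and Mir7063 in Ap2a2 with 24 and 4. Just outside were Mir6897 in Uggt1 with 43 and 2 counts, where 2 counts are 0.991 CPM, and Mir6991 in 2700081O15Rik with 18 and 4, where 18 counts are 0.975 CPM. In all, 5 genes at 1 CPM or more in replicate 1 missed the limit with 2 counts in replicate 2.

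Levels were also grouped by form. Of the 15 conventional genes 6 were detected (40.0%), of the 150 5′-tailed genes 13 (8.67%), of the 4 that met only the 5′ splice site 0 and of the 9 others 2. The conventional genes of the series together stood at 37.6 and 37.2 CPM, which was 27.4% of the counts of the series in replicate 1 and 26.5% in replicate 2. Mir6944 alone gave 331 of their 695 counts in replicate 1. Their median count in replicate 1 was 16, against 4.5 for the 5′-tailed genes, although a count was found for 80.0% and 76.7% of genes. Of the 9 undetected conventional genes, Mir6981 in Arap3 came nearest, with 20 counts in replicate 1 and 1 in replicate 2. Mir7060 in Fbrs had 16 and 1, Mir7091 in Dnase1l1 had 12 and 1 and Mir6970 in Skiv2l had 2 and 1. Replicate 1 alone held Mir7058 in Lat (8 counts) and Mir7080 in Cpne7 (6 counts), and Mir6923, Mir6974 in Lta and Mir7088 stood at 0 in both. Lat and Lta are genes of lymphocytes. The 5′-tailed genes together stood at 90.9 and 94.7 CPM. Among them 6 of 54 with a tail under 200 nt and 7 of 96 with a longer one were detected, with medians of 6.5 and 4 counts in replicate 1. The split at 200 nt was chosen after the values were seen, and none of these differences between forms was tested.

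Of 5 mirtrons known from earlier, 4 reached higher levels than any gene of the series. Mir3102, Mir1981 and Mir877, which each fill a whole intron, had 3399, 1995 and 1556 counts in replicate 1 and 400, 212 and 167 in replicate 2. Their means were 191 ± 10, 107 ± 2 and 83.5 ± 1.0 CPM (SD, n = 2). Mir702, which met only the 3′ splice site within 5 nt, stood at 24.4 ± 1.5 CPM. Even its lower library, at 23.3 CPM, was above the 17.9 CPM of Mir6944 in replicate 1. Mir1224, the fifth of those listed, had 7 counts and 1 count, within the range of the undetected genes of the series. Mir3102, Mir1981, Mir877 and Mir1224 meet both splice sites, and their mean levels ran from 0.437 to 191 CPM. Those of the 15 such genes of the series ran from 0 to 15.7 CPM. Outside the series 8 genes met both sites, and 4 of the 8 were detected.

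Hosts were also looked up in a muscle list and a matrix list, neither of which is complete: Actg1, Dbn1, Pdlim7 and Atp2b4, named above, are on neither. Of a list of 62 contractile, cytoskeletal and calcium-handling genes, only Myh3, the embryonic skeletal myosin heavy chain, hosts a counted gene of the series: Mir6923, at 0 in both libraries. Of 49 matrix genes 3 host one. Besides Mir7018 in Hspg2 these were Mir7005 in the laminin gene Lama5, with 1 count in replicate 1 and 0 in replicate 2, and Mir7040 in the lysyl oxidase gene Loxl3, with 3 and 0. Host transcripts were not measured here.

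Each gene's split of reads between the libraries was set against the library totals in an exact binomial test, two-sided and adjusted by Benjamini-Hochberg over the 549 genes with enough counts. The test compares 2 libraries, not conditions. Of the 178 genes 69 could be tested, since the rest had neither 1 CPM in both libraries nor 10 counts in all. An adjusted p under 0.05 with at least a 2-fold ratio was met by 2 of the 69, both higher in replicate 2, where 2.55% of all tested genes met it in either direction and 1.09% were higher in replicate 2. Without a fold minimum 3 of the 69 passed, against 22.6% of all tested genes. The test finds smaller ratios where counts are high: Mir143, at 94938 CPM on average, passed at a ratio of 1.05. The series had a median of 6 counts in replicate 1 and 1 in replicate 2, so these shares do not compare how steady the genes were. Of the 21 detected genes, 13 were higher and 8 lower in replicate 2. Their ratios ran from 0.747 for Mir6944 to 2.69 for Mir7082, with a median of 1.05, against 0.991 over all detected genes. Detection asks for 3 counts in replicate 2, so a gene near the limit can be kept because that count came out high. The 157 undetected genes summed to 50.6 CPM there, below their 56.5 CPM in the first library. This split and median therefore cannot show whether the series shifted. Over all 178 genes the ratio of summed CPM was 1.02.

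Mir7082 covers an 88 nt intron of Raver1, a ribonucleoprotein that binds the splicing factor PTB, on the minus strand of chromosome 9 from 21075497 to 21075588. It had 34 and 10 counts, or 1.84 and 4.96 CPM, 2.69 times higher in replicate 2 (interval 1.19 to 5.57; adjusted p = 0.042 by the exact binomial test). Mir6927, a 3′-tailed gene in Mllt6, had 7 and 5 counts, or 0.379 and 2.48 CPM, 6.54 times higher in replicate 2 (interval 1.64 to 23.9; adjusted p = 0.021 by the exact binomial test). Mir6945 missed 2-fold, at 1.95 times (interval 1.19 to 3.08; adjusted p = 0.0356 by the exact binomial test). None of the 3 passed when a spread between libraries was allowed for: edgeR's exact test, at the dispersion common to all genes in these libraries, gave adjusted p-values of 1 for Mir7082 and Mir6945 and 0.903 for Mir6927. That dispersion was estimated from these same 2 libraries taken as 1 group, so their differences raise it and make calls fewer. By edgeR's exact test 0 of the 69 passed, where 0.729% of all tested genes did. An unadjusted p under 0.05 by that test was found for 2, where 3.46% of all tested genes had one. Tested without a filter on low counts, Mir7082 had an adjusted p of 0.0593 and Mir6945 one of 0.0503, and among genes of the series Mir6927 alone passed, at 0.0296 (exact binomial test), where 1.66% of all 783 genes with a count passed. Under the other scalings and with reads of both strands the adjusted p by the exact binomial test ran from 0.0401 to 0.0468 for Mir7082, 0.0337 to 0.0371 for Mir6945 and 0.0199 to 0.0224 for Mir6927. Mir7059 in Cln3 had 33 counts in replicate 1 and 0 in replicate 2, where the limit for a count of 0 is 1.49 CPM against its 1.79 CPM (exact binomial test, adjusted p = 0.241); it was named after its values were seen.

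**Figure D5:**
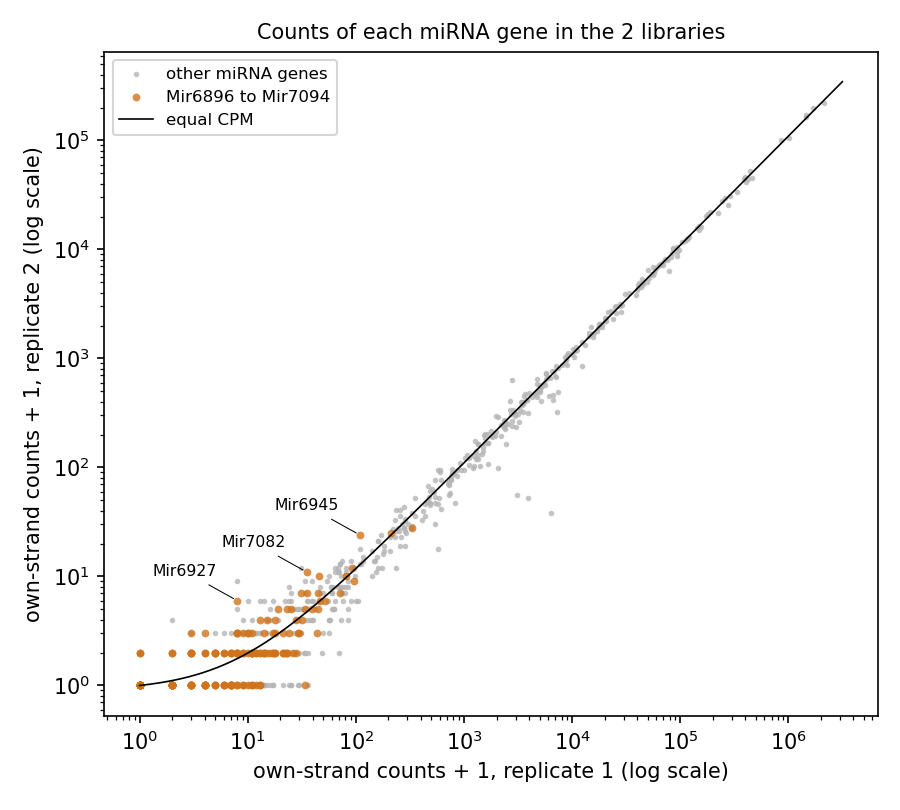
Own-strand counts plus 1 of each miRNA gene in replicate 1 (horizontal) and replicate 2 (vertical), both on log axes, for the series (orange) and all other genes (grey). The line marks equal CPM. The orange genes sit in the lowest part of the range, where counts in replicate 2 take few values, and the 3 named genes lie above the line.

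What the tables cannot show limits these values. Counts are given per gene, so they do not tell which arm or which bases of a hairpin the reads covered, and reads of a mature miRNA cannot be told apart from other short pieces of the host intron. Of the hairpin sequences, 161 of 178 were at hand; 1 of these, Mir7094-2, shared a run of 20 bases with another annotated hairpin, and none of the detected ones did.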

How the data were processed

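MicroRNA sequencing of RNA under 30 nt was deposited for 2 pooled heart samples, 1 count table each. The deposited values are raw read counts per miRNA gene on both strands, the own strand and the opposite strand; no header names the columns, and this reading rests on their layout and sums. Reads were aligned to mm10 and counted on GENCODE M4, per the authors' notes beside the tables; no source used here names the aligner. Reads that mapped to several places (33.8% and 33.2% of mapped reads) are on no gene and stayed out of library totals, as did the other 3 summary rows.

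Symbols, hosts and introns came from GENCODE M21 on the same build (1894 of 1973 identifiers matched), taking for each hairpin the best fitting overlapping intron; 5 nt was the tolerance. Levels are CPM (counts per 1000000 own-strand counts), a gene is detected where both libraries reach 1 CPM, with exact Poisson or Clopper-Pearson 95% intervals. Depth was 18467499 and 2017294 counts. Libraries were compared with exact binomial tests on genes that were detected or had 10 summed counts, at an adjusted p of 0.05 and a 2-fold ratio. The test was checked on simulated counts with counting error only, so that check does not cover spread between libraries. Alternatives used edgeR 4.0.16 and DESeq2 1.42.0 in R 4.3.3, and the rest Python 3.11.15 with scipy 1.17.1, pandas 2.3.3, statsmodels 0.14.6 and RNAfold 2.7.2. The labels describe the libraries as biological replicates. The exact binomial test covers counting error only and does not measure the spread between them. edgeR's exact test used a dispersion estimated between the 2 libraries.

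Named genes were the detected ones, those past the library test without a fold minimum, those next to the detection limit, those in hosts on the muscle and matrix lists and 5 earlier mirtrons. Some markers of cell types were named as well. Mir7023, Mir7059 and Mir7088 were named after their values or sequences were seen. Members and lists were chosen with earlier results of these data known. Rows named Gm fall outside the symbol rule, though they can hold miRNAs of the same numbers. Gm27775, with miR-6967-5p, is such a row and was counted among the other miRNAs. Sequences on 1 chromosome were not printed.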

Additional observations from a re-analysis of the deposited data

Results flagged for a closer look

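Opposite-strand reads, which no level above uses, were counted at the Mir6896 to Mir7094 genes in replicate 1: 6 counts, above the limit of 3 that a count of 0 allows. Mir7032 had 2 of them, with 0 on its own strand, and Mir6922, Mir6968, Mir6977 and Mir6998 had 1 each. Replicate 2 had 0.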

How the results depend on the processing

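The number of detected genes in the series followed the limit: 21 at 1 CPM became 34 at 0.5 CPM, 3 at 5 CPM, 91 at 1 count or more, 5 at 10 counts or more and 13 scaled to all mapped reads, and 26 to 34 with a replicate left out. It stayed at 21 with TMM scaling, DESeq2 size factors or reads of both strands. For conventional mirtrons the 6 became 1 at 5 CPM, 10 at 1 count or more and 3 at 10 counts or more. The detected share of the other miRNA genes, 22.2%, became 17.9%, 27.6% and 18.6% under those 3 limits. It was 23.5% at 0.5 CPM, 20.7% scaled to all mapped reads and 22.9 to 23.3% with a replicate left out. The share of all counts was 0.0133% with both strands, 0.0123% without Mir6944 and 0.0137 to 0.0140% with a replicate left out. Genes past the library test numbered 1 without a filter on low counts (13 of all genes), 0 by edgeR's exact test (4 of all genes) and, in an alternative chosen after seeing the data, 1 (Mir7082) among detected genes. The opposite-strand share of 0.213% ranged from 0 to 0.236% with a replicate left out. For other settings the cause was not tested. No result reversed. Among levels of single genes 105 alternative values stayed within the SD of the 2 replicates and 5 did not, all with both strands. A level with a replicate left out always lies within that SD, so those values are no check. Among log2 ratios 42 alternative values stayed within 0.5 of the main value and 2 did not. The depth of replicate 2 limits the detection calls, since 1 CPM is 3 counts there. No paired analysis was possible because the series has 1 group.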
